A study of Mus musculus with 6 samples.

Results

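P2ry12, P2ry13, P2ry6, Gpr34, P2rx4, P2rx7, Adora3 and Entpd1 are the receptors and the surface enzyme through which microglia read extracellular nucleotides, adenosine and a related lipid. These 8 genes were taken by name out of 31053 features, and each was followed through all 6 libraries of a single-nucleus RNA-seq series. All 8 passed the filter on low counts in every comparison below.

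Microglia carry a set of receptors for purines and pyrimidines that leak or are released from neighbouring cells. P2ry12 and P2ry13 encode Gi-coupled ADP receptors, and P2ry12 is the receptor by which resting microglial processes move toward an ADP source. P2ry6 encodes a receptor for UDP linked to phagocytosis, P2rx4 and P2rx7 encode ATP-gated cation channels, Adora3 encodes an adenosine receptor, and Gpr34 encodes a P2Y-family relative that responds to lysophosphatidylserine. Entpd1 encodes CD39, the ectonucleotidase that degrades ATP and ADP to AMP.

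The nuclei came from the hippocampus of 9.5-month-old mice and were sorted for PU.1, a transcription factor of the myeloid lineage. Each genotype had 1 library, and each library pooled the hippocampi of 3 mice. P301S/E4/TREM2- carried mutant P301S tau and human APOE4 with Trem2 deleted, and P301S/E4/TREM2+ carried the same 2 alleles with Trem2 present. P301S/EKO/TREM2- and P301S/EKO/TREM2+ carried P301S tau without Apoe, and E4/TREM2- and E4/TREM2+ carried APOE4 without the tau transgene. No library was labelled as wild type. The promoter of the tau transgene is not given in the sources used here. Because mice were pooled, the spread between mice is not in these data.

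Of 33335 deposited nuclei, 31738 with at least 200 detected genes and at most 5% mitochondrial UMIs were used, and they held 28636665 UMIs. A UMI is a molecular tag that counts 1 captured transcript. Each library kept between 3582 and 7004 nuclei with a median of 569 to 915 UMIs per nucleus, and 115 cell barcodes occurred in more than 1 library. Trem2 was at 580, 469 and 348 CPM (UMIs of a gene per 1000000 UMIs of its library) in TREM2- nuclei of P301S/E4, P301S/EKO and E4, against 1114, 976 and 917 CPM in their TREM2+ counterparts, so transcripts assigned to Trem2 were lower but remained. Apoe was at 9.14 and 14.2 CPM in the P301S/EKO libraries and between 187 and 1184 CPM in the others. All 15 microglia markers had UMIs in every library, with a summed level of 23050 to 41037 CPM.

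The genes lie on 5 chromosomes (GRCm38, GENCODE vM21). P2ry12 (ENSMUSG00000036353, chr3:59216272-59262871, minus strand) and P2ry13 (ENSMUSG00000036362, chr3:59207892-59210882, minus strand) are neighbours, both inside Med12l, which runs on the opposite strand and was at 102 to 171 CPM in the 6 libraries. Whether the counting used strand is not given in the sources used here. P2rx7 (ENSMUSG00000029468, chr5:122643911-122691432, plus strand) and P2rx4 (ENSMUSG00000029470, chr5:122707544-122729738, plus strand) are also neighbours. Gpr34 (ENSMUSG00000040229, chrX:13632089-13640858, plus strand) lies inside Cask, on the opposite strand. P2ry6 is ENSMUSG00000048779 (chr7:100937630-100974649, minus strand) and Entpd1 is ENSMUSG00000048120 (chr19:40612366-40741602, plus strand). Adora3 (ENSMUSG00000000562, chr3:105870858-105908926, plus strand) shares 779 exonic bases, 20.9% of its own, with Tmigd3 on the same strand. Reads there could be split between the pair or left out, so the Adora3 level is uncertain.

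The promoters of the neighbouring genes for ADP receptors that moved together and of the channel that moved opposite to them are shown because those 3 genes carry the main contrast below. Each is the 250 bases before the RefSeq start site (GRCm38.p6), 5′ to 3′ on the gene's own strand, at chr3:59262986-59263235 for P2ry12, chr3:59210883-59211132 for P2ry13 and chr5:122707294-122707543 for P2rx4. Capitals mark matches on either strand to the PU.1 core GAGGAA or to the E-box CACGTG, which did not overlap each other in these windows.
P2ry12: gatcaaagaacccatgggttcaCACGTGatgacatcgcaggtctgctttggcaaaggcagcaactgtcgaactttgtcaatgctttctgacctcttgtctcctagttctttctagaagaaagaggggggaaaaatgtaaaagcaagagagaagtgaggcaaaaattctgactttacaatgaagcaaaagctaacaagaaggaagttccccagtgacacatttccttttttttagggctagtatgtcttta
P2ry13: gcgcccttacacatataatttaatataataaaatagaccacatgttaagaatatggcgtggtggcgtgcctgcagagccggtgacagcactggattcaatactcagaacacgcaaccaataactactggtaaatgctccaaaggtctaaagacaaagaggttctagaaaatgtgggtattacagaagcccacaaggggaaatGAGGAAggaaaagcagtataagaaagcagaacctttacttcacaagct
P2rx4: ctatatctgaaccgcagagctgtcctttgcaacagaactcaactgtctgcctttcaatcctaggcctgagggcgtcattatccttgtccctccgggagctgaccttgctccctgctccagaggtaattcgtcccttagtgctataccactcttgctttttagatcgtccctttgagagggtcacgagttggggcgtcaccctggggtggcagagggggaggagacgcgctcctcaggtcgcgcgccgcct
The P2ry12 window held 1 E-box that began 228 bases before the start site, and the P2ry13 window held 1 PU.1 core 48 bases before it. The P2rx4 window held neither set of letters. Of 32851 RefSeq promoter windows of this length, 23.3% held the PU.1 core and 6.02% the E-box, so these matches are a description and not a mark of these genes. RefSeq promoters were matched for 6 of the 8 genes. The other two are P2ry6 and Gpr34.

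The first comparison asks what tau P301S does on an APOE4 background. The ADP receptors P2ry12 and P2ry13, the lysophospholipid receptor Gpr34, the adenosine receptor Adora3 and the ectonucleotidase Entpd1 fell in P301S/E4 relative to E4, and the ATP-gated channel P2rx4 rose. In all, 6 of the 8 genes were called by edgeR's quasi-likelihood test after Benjamini-Hochberg adjustment (p of 0.05 or less), 5 downward and 1 upward. Among all 12515 genes tested, 17.0% were called, 7.80% upward and 9.24% downward. Their median log2 fold change was -0.77, beside -0.00147 over all genes.

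P2ry12 was at 518 CPM (TREM2-) and 354 CPM (TREM2+) in P301S/E4, against 1337 CPM (TREM2-) and 1235 CPM (TREM2+) in E4. Both tau libraries lay below both E4 libraries with no overlap, at log2 -1.63 (SE 0.12, adjusted p = 2.99e-05), which is 0.323 of the E4 level. P2ry13 was at 179 and 143 CPM in the TREM2- and TREM2+ libraries of P301S/E4, against 443 and 345 CPM in the TREM2- and TREM2+ libraries of E4. The 2 groups again did not overlap, at log2 -1.33 (SE 0.12, adjusted p = 6.51e-05).

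Gpr34 was at 405 and 461 CPM in the TREM2- and TREM2+ libraries of P301S/E4, against 1084 and 1013 CPM in the TREM2- and TREM2+ libraries of E4 (log2 -1.32, SE 0.14, adjusted p = 0.000131). Entpd1 was at 227 and 256 CPM in the same tau libraries, against 410 and 438 CPM in the TREM2- and TREM2+ libraries of E4 (log2 -0.86, SE 0.14, adjusted p = 0.00202). For both genes, every tau library was below every E4 library. Adora3 was at 57.2 and 69.9 CPM in the TREM2- and TREM2+ libraries of P301S/E4, against 91.1 and 106 CPM in the TREM2- and TREM2+ libraries of E4 (log2 -0.68, SE 0.14, adjusted p = 0.00747). Its call rested on both E4 libraries, since the adjusted p was 0.0681 without E4/TREM2- and 0.0613 without E4/TREM2+.

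P2rx4 went the other way. It was at 458 CPM (TREM2-) and 562 CPM (TREM2+) in P301S/E4, against 183 CPM (TREM2-) and 178 CPM (TREM2+) in E4. Both tau libraries lay above both E4 libraries, at log2 1.44 (SE 0.14, adjusted p = 7.37e-05), a 2.72-fold difference. The neighbouring channel gene P2rx7 did not pass the test, at 184 and 164 CPM in the TREM2- and TREM2+ libraries of P301S/E4, against 178 and 163 CPM in the TREM2- and TREM2+ libraries of E4 (log2 -0.02, SE 0.13, adjusted p = 0.959). The UDP receptor gene P2ry6 did not pass it either, at 546 and 591 CPM in the TREM2- and TREM2+ libraries of P301S/E4, against 589 and 677 CPM in the TREM2- and TREM2+ libraries of E4 (log2 -0.20, SE 0.15, adjusted p = 0.447).

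**Figure D1:**
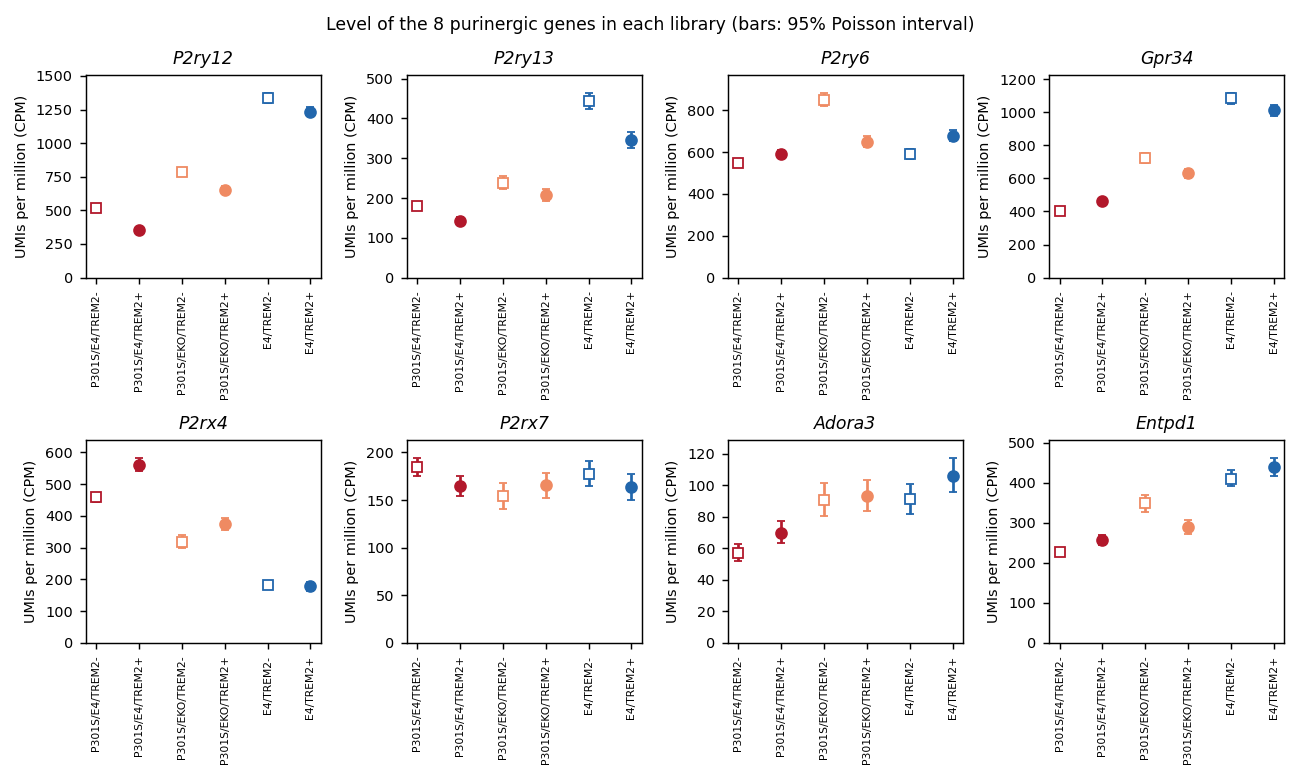
CPM of each of the 8 genes in the 6 libraries, grouped as P301S/E4 (red), P301S/EKO (orange) and E4 (blue), with TREM2- as open squares, TREM2+ as filled circles, and 95% Poisson intervals that cover counting error only. P2ry12 is at 518 and 354 CPM in P301S/E4, against 1337 and 1235 CPM in E4, P2rx4 is highest in the P301S/E4 libraries at 458 and 562 CPM, and P2rx7 stays between 154 and 184 CPM.

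The share of nuclei with a P2ry12 UMI followed the same grouping once depth was equal. After each nucleus was thinned to 500 UMIs, and shallower nuclei were left out, the share was 23.0% in P301S/E4/TREM2- and 15.6% in P301S/E4/TREM2+, against 47.6% in E4/TREM2- and 44.6% in E4/TREM2+. Before thinning it was 39.7% and 24.7% in those tau libraries, against 59.9% and 51.9% in those E4 libraries. The thinned share with a P2rx4 UMI was 18.5% and 22.6% in P301S/E4/TREM2- and P301S/E4/TREM2+, against 8.86% and 7.97% in E4/TREM2- and E4/TREM2+. Before thinning it was 34.4% and 34.9% in those tau libraries, against 13.3% and 10.9% in those E4 libraries. The unthinned share with a P2rx4 UMI in neuron-marker nuclei was 5.42%, at a median of 3017.5 UMIs per nucleus. After thinning it was 0.0% of 162 such nuclei. Thinning left out no nuclei of either P301S/E4 library, 417 of E4/TREM2- and 1488 of E4/TREM2+. The thinned share with no UMI of any of the 8 genes was 28.5% in each P301S/E4 library, against 12.9% in E4/TREM2- and 15.4% in E4/TREM2+.

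Markers of other cells moved with this contrast. The summed level of 15 neuron markers was 411 and 297 CPM in the TREM2- and TREM2+ libraries of P301S/E4, against 2548 and 1116 CPM in the TREM2- and TREM2+ libraries of E4. The sum of 10 border macrophage markers was 995 and 684 CPM in those tau libraries, against 1061 and 950 CPM in the E4 libraries. Of 8 astrocyte markers 2 rose, Gfap at log2 2.44 and Slc1a3 at log2 0.71, and the summed level of the 8 was 483 and 773 CPM in the P301S/E4 libraries (TREM2- and TREM2+), against 409 and 390 CPM in the E4 libraries. Of 6 tested oligodendrocyte markers 3 had a positive and 3 a negative log2 fold change, with a median of 0.02. Of them 1 was called, Prr5l, which rose at log2 2.77. The sum of the 8 listed was 251 and 308 CPM in the P301S/E4 libraries, against 246 and 208 CPM in the E4 libraries. All 15 microglia markers had a negative log2 fold change and 9 were called as falling, with a median of -0.86. Their summed level was 23050 and 24633 CPM in the P301S/E4 libraries (TREM2- and TREM2+), against 41037 and 36864.5 CPM in the E4 libraries. The part of the astrocyte, oligodendrocyte and microglia markers in the result was not tested. In nuclei with at least 4 neuron markers and fewer microglia markers, P2ry12 had a thinned share of 1.85%, with a median of 3017.5 UMIs per nucleus before thinning, against 30.4% and a median of 721 UMIs in nuclei outside the neuron-marker and macrophage-marker classes. Without neuron-marker and macrophage-marker nuclei the same 6 genes were called, with P2ry12 at log2 -1.72 and P2rx4 at log2 1.44. Median depth was 915 and 775 UMIs in the P301S/E4 libraries, against 710 and 572 UMIs in the E4 libraries. The 6 calls were also made after thinning to equal depth.

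Other genes of the purine pathway were called in both directions, and their counts stand beside the 17.0% called among all genes tested. Of 2 tested P2Y receptors outside the 8 genes, P2ry14, a UDP-glucose receptor, rose (log2 0.98, adjusted p = 0.0459) and P2ry10b fell (log2 -0.81, adjusted p = 0.0110). The 1 tested P2X receptor and the 1 tested adenosine receptor were not called. Of 12 tested ectonucleotidase and adenosine-handling genes, 1 rose and 2 fell. Enpp1, which hydrolyses extracellular ATP, rose at log2 2.17 (adjusted p = 0.000230), while Enpp5 fell at log2 -1.51 and Pnp, purine nucleoside phosphorylase, at log2 -0.88. Of 20 genes of purine release and P2 signalling, 1 rose and 3 fell. Pycard, the inflammasome adaptor, rose at log2 0.41, and the genes that fell were Panx2 at log2 -2.40, Il1b at log2 -0.90 and the calcium channel gene Orai1 at log2 -0.81.

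The wider homeostatic microglia list fell alongside the ADP receptors. Of its 18 tested members outside the 8 genes, 15 fell and 0 rose, with a median log2 fold change of -0.93. Slc2a5, a fructose transporter gene, fell at log2 -2.47, Selplg at log2 -1.82, Upk1b at log2 -3.03 and Tmem119 at log2 -1.60. Over the 6 libraries the genes whose log2 CPM was most like that of P2ry12, out of 5071 genes with at least 1000 UMIs, included Sort1 (Pearson r 0.997), Slco2b1 (0.993), Gm30329 (0.993) and Sparc (0.993). Among the 8 genes, r with P2ry12 was 0.98 for P2ry13, 0.94 for Gpr34, 0.91 for Entpd1 and -0.99 for P2rx4. These values describe 6 libraries that share their depth and composition differences.

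The second comparison asks what APOE4 adds when tau P301S is present. P301S/E4 had less P2ry12 and Gpr34 and more P2rx4 than P301S/EKO, the same directions as against E4, though both comparisons use the P301S/E4 libraries. Of the 8 genes, 3 were called, 2 downward and 1 upward, with a median log2 fold change of -0.43. Over all 12515 genes 3.67% were called, 1.87% downward and 1.80% upward.

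P2ry12 was at 518 and 354 CPM in the TREM2- and TREM2+ libraries of P301S/E4, against 787 and 654 CPM in the TREM2- and TREM2+ libraries of P301S/EKO. The groups did not overlap, at log2 -0.73 (SE 0.12, adjusted p = 0.0119). Gpr34 was at 405 and 461 CPM in the P301S/E4 libraries, against 724 and 630 CPM in the TREM2- and TREM2+ libraries of P301S/EKO (log2 -0.63, SE 0.14, adjusted p = 0.0310). Its adjusted p was 0.0754 without P301S/E4/TREM2- and 0.276 without P301S/EKO/TREM2-.

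P2rx4 was at 458 and 562 CPM in the TREM2- and TREM2+ libraries of P301S/E4, against 319 and 374 CPM in the TREM2- and TREM2+ libraries of P301S/EKO. The groups did not overlap, at log2 0.57 (SE 0.13, adjusted p = 0.0418). The call sat close to the threshold. Its adjusted p was 0.0501 with DESeq2, 0.120 after thinning, 0.0836 without neuron-marker and macrophage-marker nuclei, and 0.0704 without P301S/E4/TREM2+. It was 0.202 and 0.0818 without the TREM2- and the TREM2+ library of P301S/EKO.

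The other 5 genes did not pass the test. P2ry13 was at 179 and 143 CPM in the TREM2- and TREM2+ libraries of P301S/E4, against 239 and 208 CPM in the TREM2- and TREM2+ libraries of P301S/EKO (log2 -0.47, adjusted p = 0.0639). Adora3 was at 57.2 and 69.9 CPM in those P301S/E4 libraries, against 90.5 and 93.4 CPM in those P301S/EKO libraries (log2 -0.53, adjusted p = 0.0723). P2ry6 had a log2 fold change of -0.38 and Entpd1 of -0.39. For Entpd1 the pairs differed in size, at log2 -0.62 (95% counting interval -0.73 to -0.51) with Trem2 deleted and -0.17 (-0.29 to -0.06) with Trem2 present. For P2ry6 they also differed, at log2 -0.64 (95% counting interval -0.71 to -0.57) with Trem2 deleted and -0.14 (-0.21 to -0.06) with Trem2 present, and P301S/EKO/TREM2- had the highest P2ry6 of all libraries at 849 CPM. P2rx7 was at log2 0.13 (adjusted p = 0.634). Its pairs were at log2 0.26 (95% counting interval 0.11 to 0.41) with Trem2 deleted and -0.01 (-0.16 to 0.14) with Trem2 present.

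Of the pathway lists, Enpp1 again rose (log2 1.40, adjusted p = 0.0115) and Panx2 fell (log2 -2.75, adjusted p = 0.0226), with no call among the tested P2Y, P2X and adenosine receptors outside the 8 genes. Of the 18 wider homeostatic genes, 5 fell and 0 rose, among them Selplg at log2 -0.98 and Siglech at log2 -0.75. Of 15 microglia markers 12 had a negative log2 fold change and 4 were called as falling, with a median of -0.34. Their part in the result was not tested. The neuron marker sum was 411 and 297 CPM in the P301S/E4 libraries, against 857 and 645 CPM in the P301S/EKO libraries. The macrophage marker sum was 995 and 684 CPM in the P301S/E4 libraries, against 536 and 415 CPM in the P301S/EKO libraries. None of the astrocyte and oligodendrocyte markers was called, and the astrocyte sum was 483 and 773 CPM in the P301S/E4 libraries, against 807 and 758 CPM in the P301S/EKO libraries. The P2ry12 and Gpr34 calls were also made without neuron-marker and macrophage-marker nuclei.

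The third comparison asks what Trem2 deletion does across the 3 backgrounds. None of the 8 genes was called by edgeR's quasi-likelihood test, beside 0.112% of all 12515 genes (0.0320% upward and 0.0799% downward), and DESeq2 called 0 as well. At an unadjusted p under 0.05 there were 2, P2ry12 and P2ry13, the ADP receptors, beside 778 of all 12515 genes.

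P2ry12 was higher in the TREM2- library of every background. It was at 518 CPM in P301S/E4/TREM2- against 354 CPM in its TREM2+ counterpart, at 787 CPM in P301S/EKO/TREM2- against 654 CPM in P301S/EKO/TREM2+, and at 1337 CPM in E4/TREM2- against 1235 CPM in E4/TREM2+. The pair ratios were log2 0.55 (95% counting interval 0.47 to 0.62), 0.27 (0.19 to 0.35) and 0.11 (0.06 to 0.17), and the fit gave 0.34 (SE 0.10, edgeR adjusted p = 0.464). P2ry13 was at 179, 239 and 443 CPM in TREM2- nuclei of P301S/E4, P301S/EKO and E4, against 143, 208 and 345 CPM in their TREM2+ counterparts. It too was higher in 3 of 3 TREM2- libraries, at log2 0.32 (SE 0.10, edgeR adjusted p = 0.498).

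Summed neuron and border macrophage markers were also higher in the TREM2- library of every background. The neuron marker sum was 411, 857 and 2548 CPM in the TREM2- libraries of P301S/E4, P301S/EKO and E4, against 297, 645 and 1116 CPM in their TREM2+ counterparts. Of 15 neuron markers 10 had a positive and 5 a negative log2 fold change (median 0.26). Of them 1 was called, Meg3, which rose at log2 1.54. All 10 border macrophage markers had a positive log2 fold change (median 0.41, with 0 called), and their sum was 995, 536 and 1061 CPM in the TREM2- libraries, against 684, 415 and 950 CPM in the TREM2+ libraries. Without macrophage-marker and neuron-marker nuclei P2ry12 was at log2 0.36 and P2ry13 at log2 0.35.

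The authors' deposited table for P301S/E4/TREM2+ against P301S/E4/TREM2-, made over nuclei, gave P2ry12 a log fold change of -0.87 (adjusted p 0.0223), that is, lower in TREM2+, and Trem2 one of 0.58. In the authors' deposited table the other 7 genes had an adjusted p of 1. In the authors' deposited table P2rx4 (-0.11) and Entpd1 (-0.04) were lower in TREM2+, whereas the summed UMIs of this pair put both higher in TREM2+, at log2 -0.29 for P2rx4 and -0.17 for Entpd1 in TREM2- over TREM2+. With 1 pooled library per genotype, the adjusted p of that table does not cover the spread between mice. Which nuclei entered it and the base of its logarithm are not stated. Its set of nuclei may therefore differ from the set summed here.

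P2rx4 was at 458 CPM in P301S/E4/TREM2- against 562 CPM in P301S/E4/TREM2+, at 319 CPM in P301S/EKO/TREM2- against 374 CPM in P301S/EKO/TREM2+, and at 183 CPM in E4/TREM2- against 178 CPM in E4/TREM2+. The fit gave log2 -0.14 (SE 0.11, adjusted p = 0.942). Adora3 was at log2 -0.16, P2rx7 at 0.09, Gpr34 at 0.06, P2ry6 at 0.05 and Entpd1 at 0.02, each with an SE of 0.10 to 0.12. None of the tested pathway genes and none of the 18 wider homeostatic genes was called. Of those 18 genes 13 had a positive log2 fold change and 5 a negative one. Their median was 0.24, beside 0.00613 over all genes. Whether the deletion acted differently in 1 background than in the others was tested with 1 interaction term at a time and 1 residual degree of freedom, and no member was called. P2ry12 had an adjusted p of 0.499 for the P301S/E4 background.

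**Figure D2:**
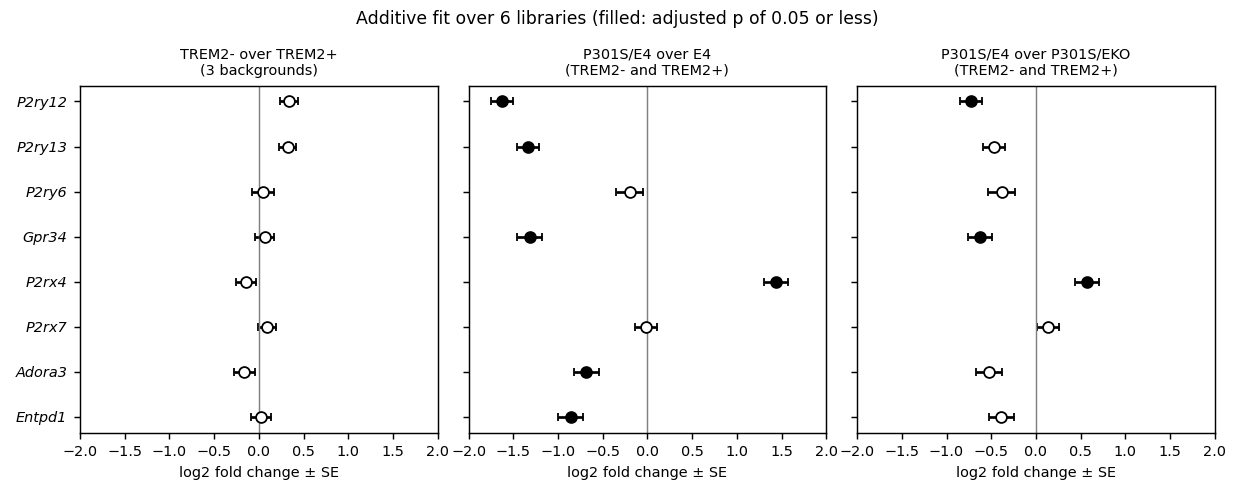
Log2 fold change with its SE for the 8 genes in TREM2- over TREM2+, P301S/E4 over E4 and P301S/E4 over P301S/EKO, from 1 additive fit over 6 libraries, with filled points at an adjusted p of 0.05 or less. P2ry12 sits at 0.34, -1.63 and -0.73 in that order, P2rx4 at -0.14, 1.44 and 0.57, and no point is filled in the TREM2 panel.

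Set in order of level, the 8 genes fall into different patterns across the genotypes. P2ry12 was highest in E4, intermediate in P301S/EKO and lowest in P301S/E4, with TREM2- above TREM2+ in each background and no overlap between the counting intervals of any of the 5 neighbouring pairs. P2ry13 had the same order, with the P301S/EKO pair overlapping. Gpr34 differed only in the order of the lowest pair. P2rx4 ran nearly the reverse, with the E4 pair overlapping at the bottom. For P2rx7 all 5 neighbouring pairs overlapped, over a range of 1.20-fold. Its highest and lowest intervals did not overlap, at 175 to 194 CPM in P301S/E4/TREM2- and 141 to 168 CPM in P301S/EKO/TREM2-. Adora3 had 3 overlapping pairs, P2ry6 2 and Entpd1 1. With 1 library per genotype these intervals cover counting error only.

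Gpnmb and Lpl mark microglia that respond to damage or lipid, and nuclei were split by whether they held a UMI of either gene. Gpnmb UMIs were found in 765 nuclei (10.9%) of P301S/E4/TREM2- and 562 nuclei (9.09%) of P301S/E4/TREM2+, and in at most 15 nuclei of any other library, so the comparison rests on those 2 libraries. Within them Gpnmb-positive nuclei had less P2ry12, P2ry13, Gpr34 and Adora3 and more P2rx4 than Gpnmb-negative nuclei. Of the 8 genes 4 fell and 1 rose. Over 12057 genes tested 7.23% were called, 2.51% downward and 4.72% upward.

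In P301S/E4/TREM2-, P2ry12 was at 350 CPM in Gpnmb-positive nuclei against 558 CPM in Gpnmb-negative nuclei. In P301S/E4/TREM2+ it was at 235 CPM in positive nuclei against 374 CPM in negative nuclei. The library-blocked fit gave log2 -0.63 (SE 0.08, adjusted p = 6.73e-13). Gpr34 was at 254 CPM in Gpnmb-positive nuclei against 441 CPM in negative nuclei of P301S/E4/TREM2-, and at 319 CPM in positive nuclei against 485 CPM in negative nuclei of P301S/E4/TREM2+ (log2 -0.68, SE 0.08, adjusted p = 1.14e-14). Both genes were lower in positive nuclei of both libraries, with 95% counting intervals that excluded 0.

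P2ry13 was at 124 CPM in positive nuclei against 192 CPM in negative nuclei of P301S/E4/TREM2-, and at 105 CPM in positive nuclei against 150 CPM in negative nuclei of P301S/E4/TREM2+ (log2 -0.55, SE 0.11, adjusted p = 1.76e-05). P2rx4 was at 553 CPM in positive nuclei against 436 CPM in negative nuclei of P301S/E4/TREM2-, and at 686 CPM in positive nuclei against 542 CPM in negative nuclei of P301S/E4/TREM2+ (log2 0.38, SE 0.07, adjusted p = 7.74e-06). Adora3 fell at log2 -0.49 (SE 0.16, adjusted p = 0.0358). Entpd1, P2ry6 and P2rx7 did not pass the test, at log2 -0.26, -0.16 and -0.18.

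The fit for Gpnmb had 1 residual degree of freedom and borrowed its spread from all genes. DESeq2 and the fit on thinned nuclei each called 2 of the 8 genes, P2ry12 and Gpr34 in both cases. Positive nuclei were deeper, with a median of 1236 UMIs against 889 UMIs in negative nuclei of P301S/E4/TREM2-, and 983 UMIs against 762 UMIs in negative nuclei of P301S/E4/TREM2+. After thinning, status was read again from the thinned UMIs, so nuclei that lost their Gpnmb UMIs counted as negative. This left 482 positive nuclei in P301S/E4/TREM2- and 356 in P301S/E4/TREM2+. The thinned share with a P2ry12 UMI was 12.9% of positive nuclei against 23.8% of negative nuclei in P301S/E4/TREM2-, and 6.74% of positive nuclei against 16.2% of negative nuclei in P301S/E4/TREM2+. Among 6 tested oligodendrocyte markers 3 rose in positive nuclei, with Mbp at log2 1.21, and 14 of 15 microglia markers fell. Their part in the result was not tested.

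Other purine genes also differed in Gpnmb-positive nuclei. P2ry14 rose (log2 1.57, adjusted p = 1.07e-08). Of 13 tested ectonucleotidase and adenosine-handling genes 3 rose, namely Acpp at log2 3.63, the adenosine kinase gene Adk at log2 0.85 and Enpp1 at log2 0.54, and 0 fell. Of 19 tested genes of purine release and P2 signalling 3 fell, namely Rgs10 at log2 -0.44, the potassium channel gene Kcnk6 at log2 -0.41 and Pycard at log2 -0.25. Of 17 tested wider homeostatic genes 11 fell, with Siglech at log2 -0.80 and Tmem119 at log2 -0.74.

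Lpl UMIs were found in 561 nuclei of P301S/E4/TREM2- (8.01%), 1130 of P301S/E4/TREM2+ (18.3%), 88 of P301S/EKO/TREM2- (1.74%), 251 of P301S/EKO/TREM2+ (7.01%) and 31 of E4/TREM2+ (0.609%). These 5 libraries were used, and E4/TREM2-, with 19 positive nuclei, was under the minimum of 20. P2ry12, P2ry13 and Entpd1 fell in Lpl-positive nuclei, so 3 of the 8 genes were called, all downward, beside 1.53% of 11140 genes, with 0.691% called downward and 0.835% upward.

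P2ry12 was at 432 and 290 CPM in Lpl-positive nuclei of P301S/E4 (TREM2- and TREM2+), against 531 and 376 CPM in Lpl-negative nuclei. It was at 653 and 478 CPM in Lpl-positive nuclei of P301S/EKO (TREM2- and TREM2+), against 790 and 678 CPM in Lpl-negative nuclei. In E4/TREM2+ it was at 954 CPM in Lpl-positive nuclei, from 43 UMIs, against 1239 CPM in Lpl-negative nuclei. It was lower in positive nuclei of 5 of 5 libraries (log2 -0.42, SE 0.08, adjusted p = 0.000185). P2ry13 and Entpd1 were also lower in 5 of 5 libraries, P2ry13 at log2 -0.38 (SE 0.10, adjusted p = 0.0114) and Entpd1 at log2 -0.38 (SE 0.09, adjusted p = 0.00284). The counting intervals of P2ry12 and P2ry13 included no change in E4/TREM2+ and P301S/EKO/TREM2-, and that of P2ry13 also in P301S/EKO/TREM2+. That of Entpd1 included no change in P301S/E4/TREM2- and P301S/EKO/TREM2-. Without P301S/E4/TREM2+, which holds more Lpl-positive nuclei than any other library, none of the 8 genes was called, and P2ry12 then had log2 -0.46 (adjusted p = 0.0982). Without P301S/EKO/TREM2+, 1 was called, and Entpd1 and P2ry13 had adjusted p-values of 0.0599 and 0.0506. Without P301S/E4/TREM2-, P2ry13 was not called (adjusted p = 0.356).

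Gpr34 did not pass the test for Lpl (log2 -0.23, adjusted p = 0.175), nor did P2rx4 (log2 0.23, adjusted p = 0.185), which was higher in positive nuclei of 5 of 5 libraries. The counting interval of P2rx4 included 0 in E4/TREM2+ and P301S/EKO/TREM2-. P2ry6 was at log2 0.15, P2rx7 at -0.20 and Adora3 at -0.06. DESeq2 called 1 of the 8 genes, P2ry12. The Lpl fit had 4 residual degrees of freedom and also borrowed its spread from all genes. Positive nuclei were deeper in each library, at a median of 1136 against 903 UMIs in P301S/E4/TREM2- and 892.5 against 756 UMIs in P301S/E4/TREM2+. With status read from thinned UMIs, the share with a P2ry12 UMI was lower in positive nuclei of each library. It was 19.0% against 23.2% in P301S/E4/TREM2- and 12.4% against 16.1% in P301S/E4/TREM2+. Of 7 tested astrocyte markers 3 fell in Lpl-positive nuclei, as did 2 of 6 oligodendrocyte, 2 of 8 border macrophage and 4 of 15 microglia markers, and 0 of 13 neuron markers was called. Their part in the result was not tested. No pathway gene outside the 8 was called, and of 17 wider homeostatic genes Tmem119, Selplg and Siglech fell, at log2 -0.48, -0.43 and -0.33.

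**Figure D3:**
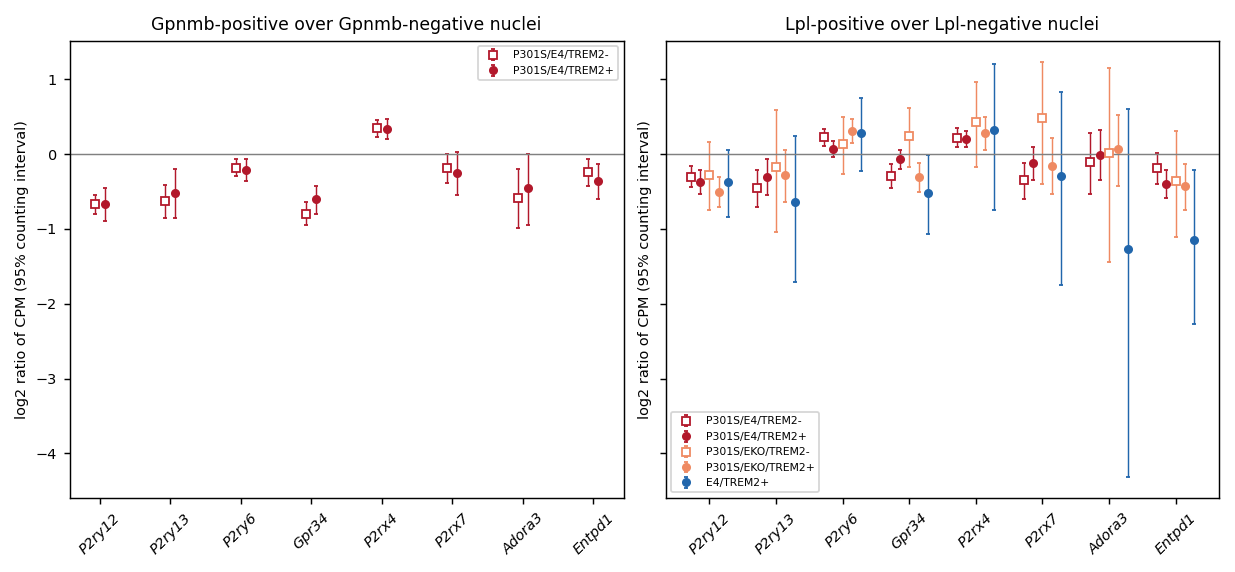
Log2 ratio of CPM, with its 95% counting interval, in Gpnmb-positive over Gpnmb-negative nuclei of 2 libraries and in Lpl-positive over Lpl-negative nuclei of 5 libraries, for each of the 8 genes. In the Gpnmb panel P2ry12 is at -0.67 in both libraries and P2rx4 at 0.34 in both, and in the Lpl panel P2ry12 lies between -0.50 and -0.27.

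The tau contrast was also present among nuclei with no UMI of Gpnmb or Lpl. In these nuclei P2ry12 was at 568 CPM (TREM2-) and 395 CPM (TREM2+) in P301S/E4, against 1346 CPM (TREM2-) and 1239 CPM (TREM2+) in E4. The fit over them called the same 6 genes as the fit over all nuclei, which called 17.0% of all genes tested. The share of all genes called over nuclei with neither UMI is not reported here. In those nuclei edgeR gave P2ry12 log2 -1.49 (adjusted p = 0.000140), Gpr34 -1.21, P2ry13 -1.20, Entpd1 -0.78, Adora3 -0.61 and P2rx4 1.34. Of the 3 calls against P301S/EKO, P2ry12 passed in these nuclei (log2 -0.62, adjusted p = 0.0463), while Gpr34 (log2 -0.53, adjusted p = 0.0851) and P2rx4 (log2 0.49, adjusted p = 0.116) did not. A nucleus with no UMI can still express Gpnmb or Lpl at this depth.

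Within the P301S/E4 libraries P2rx4 was lowest in nuclei with neither UMI. In P301S/E4/TREM2- it was at 556 CPM in nuclei with both Gpnmb and Lpl UMIs, 553 CPM with Gpnmb alone, 504 CPM with Lpl alone and 428 CPM with neither. In P301S/E4/TREM2+ it was at 685, 687, 602 and 525 CPM in the same 4 classes. Nuclei with neither UMI were still above the 183 and 178 CPM of the same class in E4/TREM2- and E4/TREM2+.

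**Figure D4:**
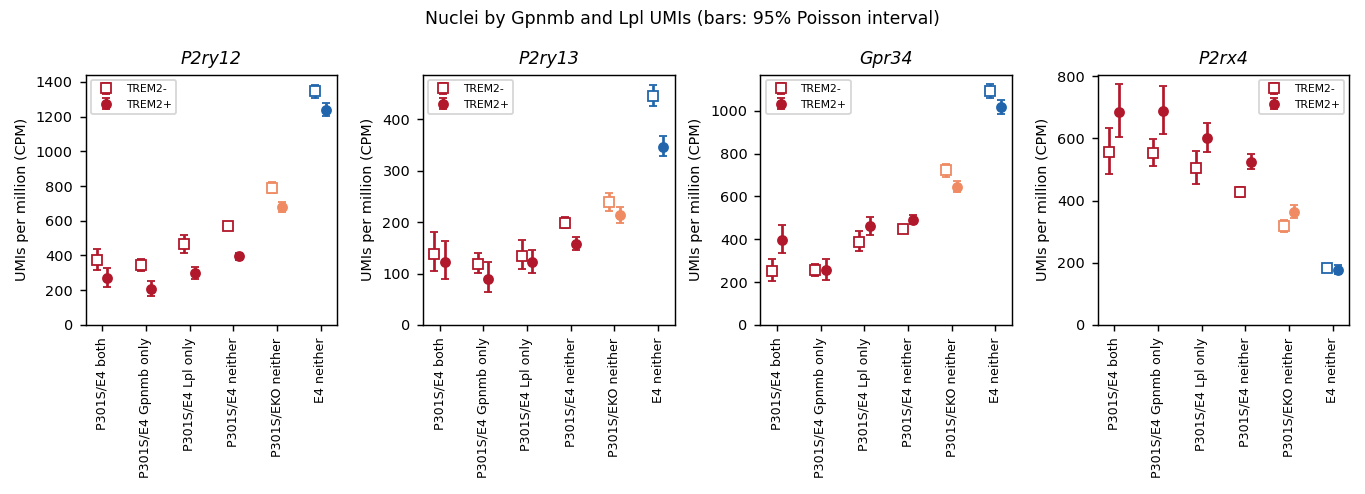
CPM of P2ry12, P2ry13, Gpr34 and P2rx4 with 95% Poisson intervals in nuclei of the P301S/E4 libraries split by Gpnmb and Lpl UMIs, and in nuclei with neither UMI of the P301S/EKO and E4 libraries, with TREM2- as open squares and TREM2+ as filled circles. P2ry12 in nuclei with neither UMI was 568 and 395 CPM in the P301S/E4 libraries, below the 1346 and 1239 CPM of the E4 libraries.

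The authors' deposited table of TERM nuclei against homeostatic nuclei, TERM being the authors' name for a microglial state, gave log fold changes of -1.52 for P2ry12, -1.07 for Gpr34, -0.94 for P2ry13, -0.58 for Entpd1 and 1.14 for P2rx4, each with an adjusted p under 0.05. In the authors' deposited table Adora3 was at -0.84 (adjusted p 0.317), P2ry6 at -0.13 and P2rx7 at 0.10. These values were calculated over nuclei of libraries that also enter the comparisons above.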

How the data were processed

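Deposited matrices held raw UMI counts per nucleus, made by the authors with Cell Ranger 3.0.1 per the file headers and aligned to mm10 per the submitters' processing notes; whether intronic reads were counted is not given in the sources used here. The authors' deposited tables gave log fold changes, here treated as a score because their base is not stated, and p-values calculated over nuclei.

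Nuclei with under 200 genes (307) or over 5% mitochondrial UMIs (1324; 34 met both) were left out. No doublet caller was run, and doublets were not removed beyond the authors' sort gate. UMIs were summed per library and tested in edgeR 4.0.16 under R 4.3.3 (with limma 3.58.1) using TMM factors (0.957 to 1.03), filterByExpr by TREM2 genotype, and background and TREM2 genotype as additive terms, which left 2 residual degrees of freedom. P-values were adjusted by Benjamini-Hochberg over all tested genes. The SE is the absolute log2 fold change divided by the square root of F. Since 1 pooled library stands for each genotype, the spread is that of the additive fit.

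For Gpnmb and Lpl, sums per library and status, without the gene itself, were tested with library as a block, in libraries with at least 20 positive nuclei. Pair ratios carry exact conditional 95% counting intervals, shares exact binomial and levels Poisson ones, all for counting error only. Depth was equalised by thinning to 500 UMIs per nucleus. Macrophage-marker nuclei had UMIs of at least 3 of the border macrophage markers (1041 nuclei, 767 near the limit), and neuron-marker nuclei at least 4 neuron markers and more than microglia markers (166 nuclei, 7 near the limit). The tests for TREM2 deletion and Gpnmb were run on simulated counts that shared a common dispersion. The tau, APOE4 and Lpl tests were not simulated.

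The genes and lists were chosen with earlier results of these data known. Named were all 8 genes, at most 6 called genes per pathway list and comparison with the lowest adjusted p (some homeostatic genes were chosen from these for the text), the 5 genes most like P2ry12 (1 is not reported here), and Trem2, Apoe, Gpnmb and Lpl. Mbp, Gfap, Slc1a3, Prr5l and Meg3 were named after their values were seen. Alternatives were DESeq2 1.42.0, other scaling, filters and nuclei, and leaving out each library.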

Additional observations from a re-analysis of the deposited data

Results flagged for a closer look

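For 3 genes the TREM2- over TREM2+ ratio pointed in opposite directions in different backgrounds, with counting intervals on opposite sides of 0. P2ry6 had log2 ratios of 0.39 in P301S/EKO, -0.11 in P301S/E4 and -0.20 in E4. The interaction term for P301S/EKO against the other backgrounds had an adjusted p of 1.00 by edgeR's quasi-likelihood test. Gpr34 had log2 ratios of 0.20 in P301S/EKO and 0.10 in E4, against -0.19 in P301S/E4, with an interaction adjusted p of 0.212 for P301S/E4 by the same test. Entpd1 had log2 ratios of 0.27 in P301S/EKO and -0.17 in P301S/E4, with an interaction adjusted p of 0.412 for P301S/E4 by edgeR. No interaction of the 8 genes passed the threshold, and each ratio rests on 1 pair of libraries.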

How the results depend on the processing

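Beyond the library block of the Gpnmb and Lpl tests and the background term of the genotype fit, no paired analysis was possible because each genotype had 1 library and the labels give no replicate numbers. Of the member results under alternatives, 519 kept their direction and their side of the threshold, 31 lost a call, 17 gained one and 17 changed sign. The number of the 8 genes called was 0 for TREM2 deletion under every alternative run, and for tau it was 6 in all but the fits without an E4 library.

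DESeq2 called 1347 genes for tau, 297 for APOE4, 144 for Gpnmb and 15 for Lpl, with 2 of the 8 genes for Gpnmb and 1 for Lpl. With no expression filter 226 genes were called for TREM2 and 1258 for APOE4. On thinned nuclei 263 genes were called for APOE4, 417 for Gpnmb and 55 for Lpl, with 2 of the 8 genes for Gpnmb. Without macrophage-marker and neuron-marker nuclei 270 genes were called for APOE4, and in nuclei with no Gpnmb and no Lpl UMI 152 genes and 1 of the 8. Without a composition factor 5 of the 8 genes were called for Lpl, and with at least 2 Lpl UMIs 285 genes were. The cause of these changes was not tested. An alternative chosen after seeing the data, without nuclei over 3 times the median UMIs of their library, called 6 of the 8 genes for tau, 3 for APOE4, 5 for Gpnmb and 3 for Lpl.

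Leaving out 1 library at a time, with the lone sample assumed to vary like the other groups, gave 11 to 114 genes for TREM2, 1083 to 2788 for tau (5 to 6 of the 8 genes), 282 to 1300 for APOE4 (1 to 4) and 14 to 272 for Lpl (0 to 4). The Gpnmb comparison could not be fitted with 1 library. Sign changes were all near 0 or not called. For TREM2, Entpd1 was at -0.0023 without a composition factor and -0.0116 in nuclei with no Gpnmb and no Lpl UMI, P2ry6 at -0.0283 with at least 500 genes per nucleus, and the ranges over left-out libraries were -0.13 to 0.13 for Entpd1, -0.16 to 0.14 for P2ry6 and -0.0429 to 0.199 for Gpr34. For tau, P2rx7 was at 0.0314 without a composition factor, 0.0440 with no expression filter, 0.0969 with at least 500 genes, 0.0067 over all deposited nuclei, 0.0398 with no Gpnmb and no Lpl UMI and -0.0827 to 0.0563 over left-out libraries. For Lpl, Adora3 was at 0.0337 with at least 500 genes per nucleus. Low counts limit Adora3 most, with 287 to 479 UMIs per library.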

Other observations

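P2rx7, the ATP-gated channel that passed no test between genotypes here, was higher in nuclei with border macrophage markers. In P301S/E4 (TREM2- and TREM2+) it was at 302 and 335 CPM in macrophage-marker nuclei, against 174 and 157 CPM in nuclei outside the marker classes. In P301S/EKO (TREM2- and TREM2+) it was at 548 and 339 CPM in macrophage-marker nuclei, against 150 and 161 CPM in the other nuclei. In E4 (TREM2- and TREM2+) it was at 625 and 335 CPM in macrophage-marker nuclei, against 160 and 159 CPM in the other nuclei, so it was higher in 6 of 6 libraries. After thinning, 21.9% of macrophage-marker nuclei had a P2rx7 UMI, against 7.93% of the other nuclei. This was not particular to P2rx7, since P2rx4 and P2ry6 were also at a higher CPM in macrophage-marker nuclei of each library. Their thinned shares were 23.6% against 15.7% for P2rx4 and 31.2% against 26.3% for P2ry6. P2ry12 ran the other way, with a thinned share of 13.9% in macrophage-marker nuclei against 30.4% in the other nuclei. In the authors' deposited table of marker genes P2rx7 stood in the group named Mac (log fold change 1.83), P2rx4 in TERM (1.28), and P2ry12 (0.95) and Gpr34 (0.79) in Ground.

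P2ry12 made up 20.1% and 13.6% of the UMIs of the 8 genes in P301S/E4/TREM2- and P301S/E4/TREM2+, against 31.0% and 29.7% in E4/TREM2- and E4/TREM2+. Tmigd3, which overlaps Adora3, was at 4.54 and 7.62 CPM in those P301S/E4 libraries, against 22.9 and 19.95 CPM in those E4 libraries.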
